A study of Mus musculus with 3 samples.

Results

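The genes described here encode 9 ion channels with which sensory neurons turn heat, cold, irritants, touch, acid and extracellular ATP into electrical signals. They are Trpv1, Trpv2, Trpm3, Trpm8, Trpa1, Piezo1, Piezo2, Asic3 and P2rx3, taken by symbol from the 30142 genes named by the arrays' probe sets. Each is read by 1 probe set, so the rule of keeping a gene's brightest probe set had no choice to make. RNA came from primary dorsal root ganglion (DRG) neurons of male ICR mice aged 8 to 10 weeks, and no genotype other than the strain is given. Cells were kept for 72 hours in DMEM with the supplement B27 (control medium), in that medium with 1 µg/ml recombinant SEMA3E, or with 1 µg/ml SEMA3E and 1 µg/ml of a SEMA3E-blocking IgG. SEMA3E, semaphorin 3E, is a secreted guidance protein. The labels do not say how many animals were pooled, and no medium with the IgG alone is among the samples used here. Each medium has 1 array, so there is no spread between replicates, no value below has an error, and no difference has a test. The study asked what SEMA3E alters in sensory neurons.

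TRP channels, P2X receptors and acid-sensing ion channels (ASICs) are cation channels that depolarise the nerve ending when a stimulus or its chemical messenger opens them, while Piezo channels open when the membrane is stretched. Within the ganglion these channels are divided among neuron classes: TRPV1 marks many heat-sensitive nociceptors, TRPM8 a small class of cool-sensing neurons, P2X3 mostly nociceptors, and PIEZO2 the touch receptors and proprioceptors. A reading from bulk RNA averages over all these cells, so fewer cells of a class and less RNA per cell cannot be told apart.

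The levels are log2(intensity + 1). Signal of unexpressed genes was taken from 492 vomeronasal receptor genes, which serve pheromone sensing in the nose, and their 95th percentile, 5.48, is called the floor. Of the 9 channel genes 8 lay above it and Trpm8 lay below, where 58.6% of all genes (17653 of 30142) and 14 of 31 related channel genes lay above it. Probe sets bind with unequal strength, so the order of the levels is one of probe set brightness and not of RNA abundance.

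P2rx3, the channel gated by ATP that forms homotrimers or joins P2X2 in nociceptors, read 7048 intensity units in control medium, 7048 with SEMA3E and 7048 with SEMA3E and IgG. Its log2 level of 12.78 lay 7.30 above the floor, and 92.2% of the 17653 genes above the floor were dimmer. It was the brightest of the 9 probe sets on every array, and the arrays cannot be ordered by it because all digits were the same.

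The heat-sensing channels spanned a wide range of brightness. Trpm3, which responds to noxious heat and to the steroid pregnenolone sulfate, read 853 units on the control, the SEMA3E and the IgG array alike, a log2 level of 9.74. Trpv2, whose protein answers extreme heat in recombinant systems and is also made by macrophages, read 506 units on each of the 3 arrays, a log2 level of 8.98. Trpv1, the capsaicin receptor, read 74.8 units on each of the 3 arrays, a log2 level of 6.24, which is 0.76 above the floor. No heat channel separated the media.

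The channel genes for cold and irritants were the dimmest. Trpa1, the receptor for mustard oil and other electrophilic irritants, read 72.9 units in control medium, with SEMA3E and with SEMA3E and IgG, a log2 level of 6.21 and 0.72 above the floor. Trpm8, the menthol and cold receptor, read 31.4 units on each array, a log2 level of 5.02, with a difference of −0.46 to the floor. Among the vomeronasal genes 89 of 492 were as bright as Trpm8 or brighter, so its signal was within the range of unexpressed genes and was not detectable above it. Trpv1 and Trpa1 were each matched or exceeded by 5 of the 492. They passed even a floor set at the 99th percentile, 6.06, by 0.18 and 0.15 in log2 level. The other 6 channel genes were brighter than every vomeronasal gene, whose highest log2 level was 6.55.

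Of the touch channels, Piezo2, which carries light touch and proprioception, read 840.0 units in control medium, 838.7 with SEMA3E and 840.0 with SEMA3E and IgG. It was lowest on the SEMA3E array, and the other 2 arrays held the same value. Piezo1, a stretch-activated channel best known from blood vessels and red blood cells, read 166 units on each array, a log2 level of 7.38, 1.90 above the floor. Asic3, the subunit of proton-gated channels that is prominent in muscle and skin afferents, read 649 units on each array, a log2 level of 9.34.

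**Figure D1:**
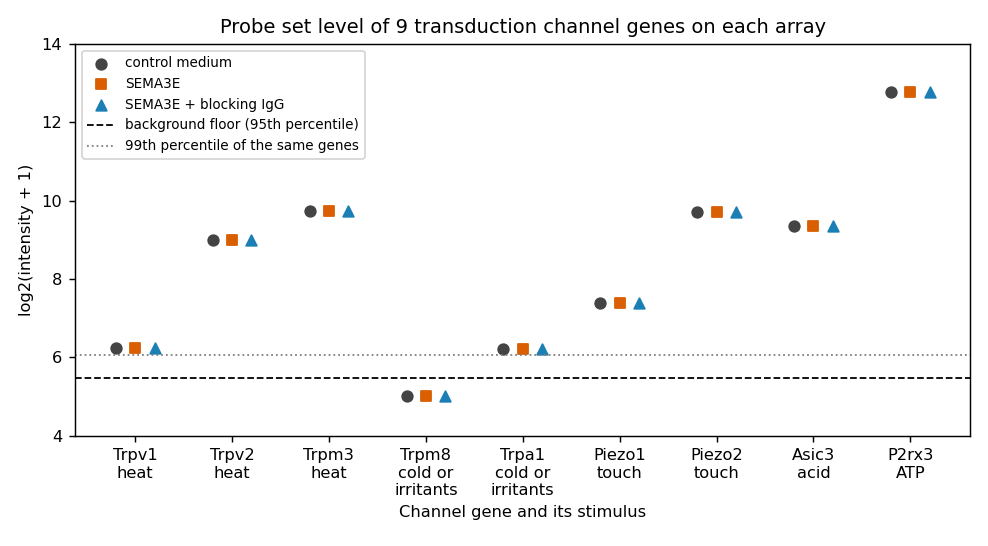
Level of each of the 9 channel genes as log2(intensity + 1) on the control, SEMA3E and SEMA3E with blocking IgG arrays, 1 point per array, with the stimulus named under the gene. The dashed line is the floor of 5.48 and the dotted line the 99th percentile of the same vomeronasal genes, 6.06. The 3 points of each gene lie side by side, Trpm8 sits under the floor, and Trpv1 and Trpa1 sit just above the dotted line.

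Set side by side by stimulus, the brightest probe set per sense had log2 levels of 12.78 for ATP (P2rx3), 9.74 for heat (Trpm3), 9.72 for touch (Piezo2), 9.34 for acid (Asic3) and 6.21 for cold or irritants (Trpa1). Trpm3 and Piezo2, neighbours in this order, read 853 and 840.0 units in control medium. With 1 array a medium there is no spread to show whether such neighbours differ. The order of the 9 was the same on all 3 arrays. All but Piezo2 held the same value on each array, so the 3 arrays give no separate support for the order.

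RefSeq's promoter table (GRCm38.p6) held 6 of the 9 genes. Trpa1, Piezo2 and P2rx3 had no entry. The 250 bases before the annotated start are shown for the gene below the floor, Trpm8, for Trpv1, just above it, and for Piezo1, a touch channel used in many tissues, to set the sequences of a neuronal cold channel, a neuronal heat channel and a broadly used channel beside each other. They lie at chr1:88306485-88306734 on the plus strand, chr11:73233899-73234148 on the plus strand and chr8:122551330-122551579 on the minus strand, and are written 5′ to 3′ along the gene. Capitals mark matches, on either strand, to TATAAA (the TATA box), GGGCGG (the GC box) and TGTGGT (the core bound by RUNX factors), and these matches do not overlap.
Trpm8: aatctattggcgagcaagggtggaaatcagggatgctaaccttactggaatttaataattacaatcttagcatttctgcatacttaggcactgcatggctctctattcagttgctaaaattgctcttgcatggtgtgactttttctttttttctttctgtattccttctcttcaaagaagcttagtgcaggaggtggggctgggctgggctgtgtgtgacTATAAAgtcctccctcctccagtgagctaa
Trpv1: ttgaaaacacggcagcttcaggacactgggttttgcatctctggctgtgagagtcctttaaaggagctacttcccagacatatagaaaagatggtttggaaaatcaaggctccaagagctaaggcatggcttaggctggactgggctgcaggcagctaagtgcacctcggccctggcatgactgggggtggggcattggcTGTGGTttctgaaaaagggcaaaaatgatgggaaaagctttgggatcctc
Piezo1: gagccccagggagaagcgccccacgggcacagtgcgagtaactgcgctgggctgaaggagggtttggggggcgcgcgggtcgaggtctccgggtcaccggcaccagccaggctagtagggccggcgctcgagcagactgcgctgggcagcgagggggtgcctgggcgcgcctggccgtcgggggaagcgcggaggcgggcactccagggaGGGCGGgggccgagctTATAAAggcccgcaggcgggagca

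The TATA match began 30 bases before the start in Trpm8 and 24 bases before it in Piezo1, and 12.4% of the 32851 windows of this length in the table held 1 or more. Piezo1 also held the GC box, beginning 40 bases before the start, a match found in 32.7% of windows. Trpv1 held the RUNX core 50 bases before the start, as did Asic3 at 228 bases and the second of 2 Trpm3 entries at 166 bases on the opposite strand. That core occurred in 14% of windows. Trpm8 had 42.8% G and C with 1 CpG dinucleotide, Trpv1 50.8% with 2, and Piezo1 74% with 26. The 3 Trpv2 entries held none of the 3 motifs. A match describes the letters only. Runx1, a factor known to shape nociceptor channel expression, read 8.34 on the log2 scale on each array, above the floor. Of 11 sensory transcription factor genes above the floor, Foxs1 was higher with SEMA3E (log2 difference 0.04), Ebf1 lower (−0.0019) and 9 identical. Over all genes above the floor 6.21% were higher and 12.3% lower.

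Relatives of the 9 channels were read from lists of the TRP, ASIC, epithelial sodium channel (ENaC) and P2X families. Of 31 other family genes with a probe set 14 lay above the floor, and all 14 held the same value on all 3 arrays. Identical values were common, at 74.9% of all genes above the floor. Among the TRPV genes, Trpv1 and Trpv2 were the 2 of 6 above the floor, and Trpv4, an osmotically activated channel, lay below it at a log2 level of 4.84. Among the 8 TRPM genes, Trpm3 was joined by Trpm7 at 9.49, a broadly expressed channel with a kinase domain, by Trpm4 at 6.23 and by Trpm6 at 5.58. Trpm2, a channel opened by oxidative stress, had a log2 level of 5.02, below the floor like Trpm8.

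The remaining families were read in part. Of 5 TRPC genes 4 passed the floor, led by Trpc1 at a log2 level of 9.07. Asic2, which can assemble with ASIC3, stood at 7.85 and Asic4 at 5.85, while Asic5 at 4.28 and the 3 ENaC genes lay below the floor. Of 6 P2X genes 4 passed: beside P2rx3, P2rx4, a receptor also found in macrophages and microglia, read 9.44 on the log2 scale, P2rx5 8.90 and P2rx6 5.76. P2rx2, the partner of P2X3 in heteromers, lay below the floor at 4.68. Asic1, P2rx7, Trpc2 and Pkd2 lacked a probe set of their own symbol alone, and so were not analysed here. Several relatives lay close to the floor: with it at the 99th percentile, 7 of the 31 remained above, and Asic4, P2rx6, Trpm6, Trpc4, Trpc5, Trpc6 and Pkd2l1 did not.

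**Figure D2:**
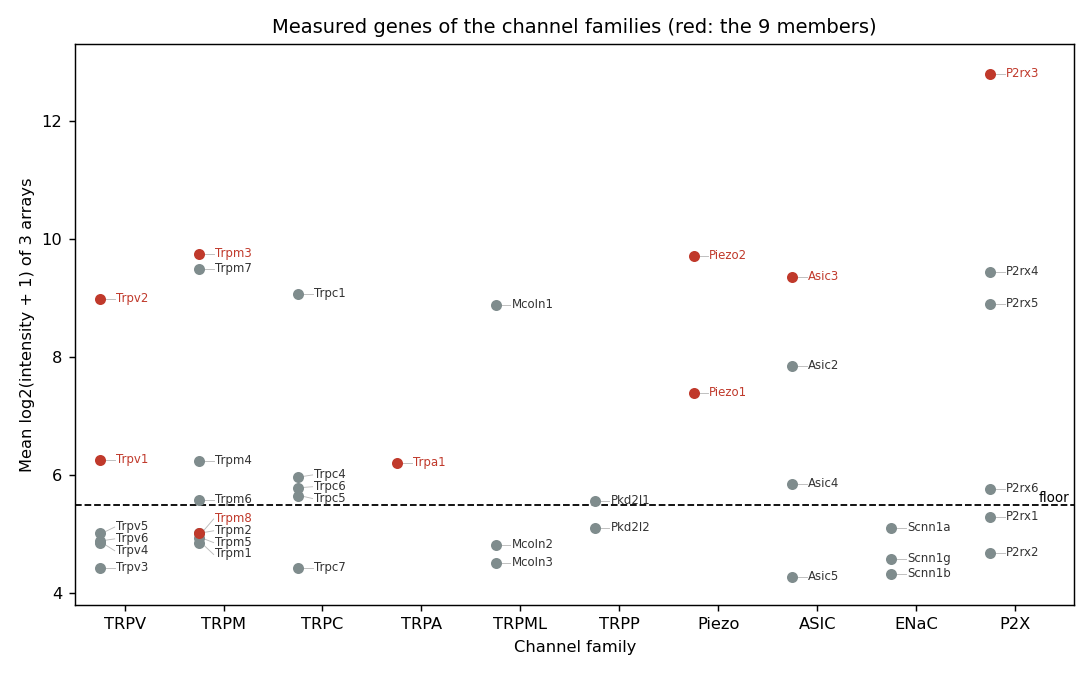
Mean log2(intensity + 1) over the 3 arrays for the 40 measured genes of the channel families, 1 point per gene and 1 column per family, with the 9 channels in red and the floor dashed. In total 22 points lie above the floor. P2rx3 is the brightest at 12.78, and Trpm8 lies below the line among other dim TRPM genes.

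The first comparison set SEMA3E against control medium. Of the 8 channel genes above the floor 1, Piezo2, was lower with SEMA3E (log2 difference −0.0023), 7 were identical to every deposited digit, and 0 were higher. Trpm8, below the floor, was identical too. In the same comparison 18.6% of the 17653 genes above the floor differed in any digit (12.3% lower, 6.21% higher), so 1 of 8 is near the background. The median difference was 0 over the 8 genes and 0 over all genes. At 1.5-fold, 0 of the 8 were apart, against 0.17% of all genes. The Piezo2 difference was among the smallest seen: of 3277 genes with any difference 68 (2.08%) were as close, and the median size of such a difference was 0.055.

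The second comparison set SEMA3E with blocking IgG against SEMA3E alone. Piezo2 was higher with the IgG (log2 difference 0.0023, but −0.0030 after quantile normalization), the other 7 channel genes above the floor were identical, and 0 were lower. Of all genes 20.5% differed here (10.3% lower, 10.2% higher), and 0.136% differed by 1.5-fold, as did 0 of the 8. In the last comparison, SEMA3E with IgG against control medium, all 8 were identical, while 19% of all genes differed (11.4% lower, 7.59% higher) and 0.204% did so by 1.5-fold. The 3 comparisons share arrays, so the fall and the return of Piezo2 rest on the same SEMA3E value. Of the genes above the floor 649 (3.68%) shared this pattern of equal control and IgG arrays with a lower SEMA3E array, and 435 (2.46%) had the opposite one. Nearest to Piezo2 by distance of log2 values about their own mean over the 3 arrays were Gm13176, Rundc3a and Map3k11, whose differences from control with SEMA3E were −0.0025, −0.0021 and −0.0026. A gene with equal values on all 3 arrays lay only 0.0019 from Piezo2 by this distance, so the pattern is itself nearly flat. Gm13176, at a log2 level of 5.65, also lay close to the floor.

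Identical values were common on these arrays. Of all genes above the floor 74.9% held the same number on all 3 arrays, as did 7 of the 8 channel genes, and below the floor 84.7% did. The share fell with brightness. It was 83.8% in the sixth of genes that holds Trpv1 and Trpa1, 83.2% in that of Piezo1 and 78.4% in that of Trpv2. It was 69.3% in the sixth with Trpm3, Piezo2 and Asic3, and 50.8% in the brightest, with P2rx3. How the probes were summarised is not stated, so equal values for these channels set no limit on how far the RNA itself could differ.

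**Figure D3:**
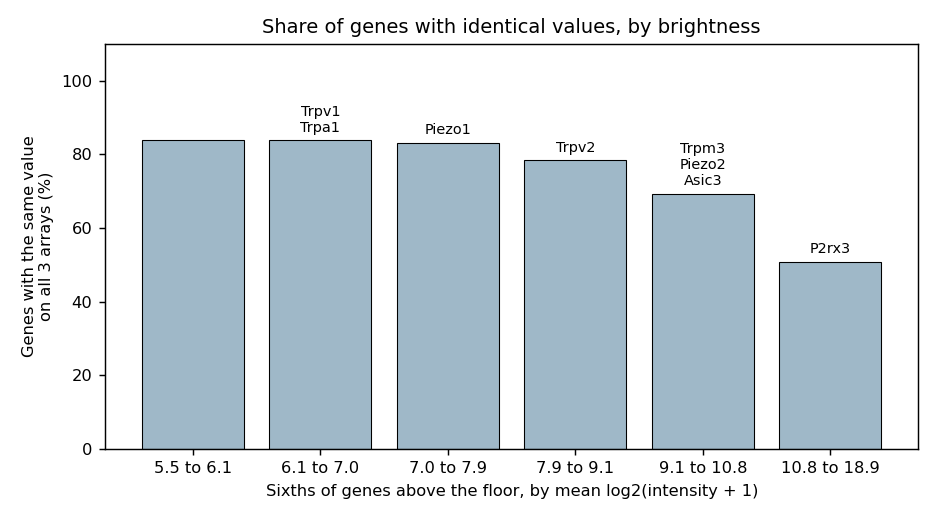
Percentage of genes with the same value on all 3 arrays, in sixths of the 17653 genes above the floor ordered by mean log2(intensity + 1), with the channel genes of each sixth written above its bar. The bars fall from 83.8% in the dimmest sixth to 50.8% in the brightest, where P2rx3 lies. Of the 3 channels in the fifth bar Piezo2 was the exception to identity.

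Genes that act with these channels were read from 8 further lists. They were P2Y receptors, other mechanosensitive channels, Piezo and ASIC partners, and other heat and cold channels. The rest of these lists were proton receptors, ATP release and breakdown, TRP sensitisation, and receptors that act on TRP channels. Of their 127 genes 110 had a probe set and 85 lay above the floor. With SEMA3E against control 4 were higher, 16 lower and 65 identical, with a median of 0 and none at 1.5-fold, where 6.21% of all genes were higher and 12.3% lower. With IgG against SEMA3E 9 were higher and 6 lower, and with IgG against control 4 were higher and 12 lower, again with 0 at 1.5-fold. Over all 3 arrays 64 of the 85 (75.3%) were identical, close to the 74.9% of all genes.

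In the list of other mechanosensitive channels, 2 of 10 were lower with SEMA3E and 0 higher. For this list and those that follow, the shares of all genes above the floor were 12.3% lower and 6.21% higher. Tmem63c, of a family of osmosensitive and stretch-sensitive channels, differed by −0.05 (log2) with SEMA3E against control and held that value with IgG. Its relative Tmem63b differed by −0.01. Among 7 Piezo and ASIC partners 1 was lower, the heparan sulfate proteoglycan gene Sdc4 (log2 difference −0.04 with SEMA3E, 0.04 with IgG against SEMA3E). Stoml3, whose product raises the sensitivity of Piezo channels, lay below the floor at a log2 level of 4.80. Of 10 other heat and cold channels Kcna1, a potassium channel that acts as a brake on excitation, was lower (−0.07), and Ano1, a chloride channel opened by heat and calcium, was identical at a log2 level of 5.98.

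Proton sensors and ATP handling differed in single genes. Of 2 proton receptor and background potassium channel genes above the floor, Kcnk1 was lower with IgG against SEMA3E (log2 difference −0.07), and Kcnk3, an acid-sensitive potassium channel, was identical. Among 8 genes of ATP release and breakdown, Calhm5, of a family of large-pore channels, was the furthest apart. It differed by −0.35 with IgG against SEMA3E and by −0.0022 with SEMA3E against control. The ectonucleotidase gene Entpd2 was lower with SEMA3E (−0.04). The ATP release channel gene Panx1 and the ectonucleotidase gene Nt5e were among the 6 that were identical, at log2 levels of 11.72 and 10.45. Of all genes above the floor 74.9% were identical on the 3 arrays. Both P2Y receptor genes above the floor were identical, P2ry2 at 10.23 and P2ry1 at 7.11.

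Of 21 TRP sensitisation genes 6 were lower with SEMA3E and 0 higher, where 12.3% of all genes above the floor were lower and 6.21% higher. The brightest sixth of genes held 6 of these 21 genes, and 5 of those 6 were lower. In that sixth 29.1% of all genes were lower and 7% higher. Pirt, a membrane protein that binds phosphoinositides and raises TRPV1 activity, had a log2 level of 14.59 and differed by −0.05 with SEMA3E, returning to its control value with IgG, although quantile normalization turned that return (0.05 against SEMA3E) to −0.00054. Akap12, a kinase anchor, differed by −0.07 with SEMA3E and by 0.11 with IgG against SEMA3E. Cdk5, a kinase that phosphorylates TRPV1, differed by −0.02 with SEMA3E and by −0.15 with IgG against SEMA3E. Of 25 receptors that act on TRP channels 4 were higher and 4 lower with SEMA3E. The artemin co-receptor gene Gfra3 was lowest of these (log2 difference −0.28), and the receptor genes Mrgprx1 and Mrgprb5 were higher (0.22 and 0.20). Mrgprx1 lay near the floor, 0.58 above it in log2 level, and 5 vomeronasal genes were as bright or brighter. The Mrgpr genes form a family of close copies whose probes can read more than 1 member.

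**Figure D4:**
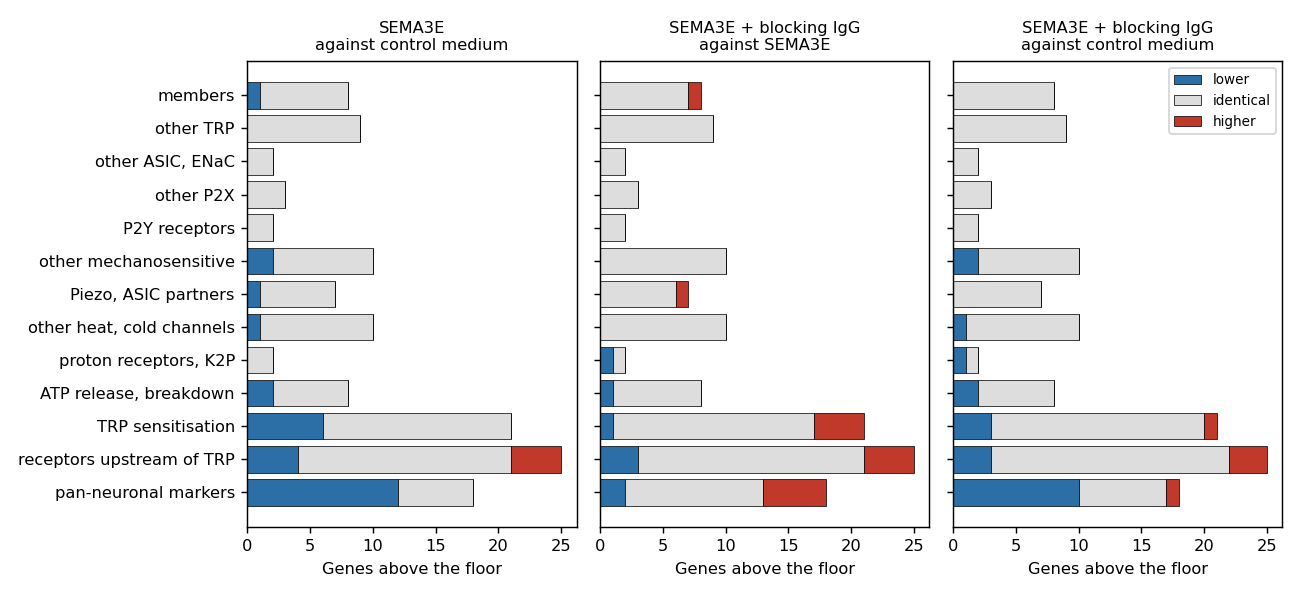
Number of genes above the floor that were lower, identical or higher in each of the 3 comparisons between arrays, for the 8 channel genes, their relatives, the pathway lists and pan-neuronal markers (horizontal bars, in genes). The bars of the channel families are identical throughout apart from Piezo2, where 74.9% of all genes above the floor were identical on the 3 arrays. The bar of pan-neuronal markers has 12 of 18 lower with SEMA3E, against 12.3% of all genes above the floor.

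All 18 pan-neuronal markers lay above the floor, from Syp at a log2 level of 7.48 to Uchl1 at 17.65. Of these 12 were lower and 0 higher with SEMA3E, led by the tubulin gene Tubb3 (log2 difference −0.16) and the synaptic vesicle gene Syp (−0.12), beside the lower Piezo2. Over all genes above the floor 12.3% were lower and 6.21% higher. Of the 18 markers 13 lay in the brightest sixth, where 8 of them and 29.1% of all genes were lower. Counted from the dimmest, the third sixth held 3 markers, all lower, where 6.93% of all genes were lower. The fifth held 2, of which 1 was lower, where 17.8% of all genes were. The summed intensity of the 18 markers was 454055 in control medium, 447969 with SEMA3E and 446058 with IgG. This sum is weighted to its brightest genes. Uchl1 read 205992 on each array. In the same order of media Nefl read 92650, 88569 and 88969, and Stmn2 55876, 55876 and 53164. The part of the 18 markers in the Piezo2 difference was not tested. Markers of other cells were above the floor in part: 8 of 8 measured for satellite glia, 7 of 8 for Schwann cells, 7 of 8 for fibroblasts, 9 of 10 for endothelial and mural cells and 7 of 13 for macrophages, against 58.6% of all genes. Of the macrophage markers Csf1r, Ptprc, C1qb, C1qc, Itgam and Mrc1 lay below the floor. Some markers passed it narrowly, among them Gja1 by 0.17, Kdr by 0.18 and Slc1a3 by 0.34 in log2 level. Some genes are on several lists, so the counts are not separate. Ngfr is also among the receptors that act on TRP channels, and Snap25 among the TRP sensitisation genes. Thy1 is on the pan-neuronal and fibroblast lists. Between SEMA3E and control medium the glial genes Kcnj10 (log2 difference −0.24) and Atp1b2 (−0.26) were lower and Fabp7 (0.13) higher. With IgG against SEMA3E these glial genes differed by −0.30, 0 and −0.13. With SEMA3E against control the Schwann cell genes Ngfr (−0.13) and S100b (−0.06) were lower. In that comparison the macrophage genes Lyz2 (0.19) and Cx3cr1 (0.04) were higher and Cd68 (−0.08) lower. The endothelial gene Cldn5 (−0.16) and the fibroblast gene Lum (−0.01) were lower. Their part in the readings of the channels was not tested, and Trpv2 and Piezo1 were identical on these arrays. Trpv2, Piezo1 and P2rx4 are known from such cells as well as from neurons, and these sources cannot be told apart in bulk RNA.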

How the data were processed

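RNA was amplified and labelled with biotin for Affymetrix arrays (GeneChip WT Pico kit), per the labels' protocols. The deposited values are probe set intensities on a linear scale, which the authors made with a tool named in the submitters' processing notes, Affymetrix Expression Console. For its version, the summarisation, the normalization and the build, the entry is: not given in the sources used here. The 3 arrays had medians of 44.5 to 45.0 units, and their number limits the precision.

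Probe sets were named by GEO's platform annotation (30604 of 65956 with a single symbol, 2146 with several, 33206 with none), and 827 symbols were updated through a RefSeq table (GRCm38.p6). A gene's brightest probe set was kept. Levels are log2(intensity + 1), and identical means equal in every deposited digit. The thresholds were the floor and a 1.5-fold difference. With 1 array a medium no test was made. The 9 genes are always named. Of each other list, up to 3 genes above the floor with the largest difference are named, or the 2 brightest where none differs, and some relatives always. Runx1, Kcnk3, Panx1, Nt5e, Trpm4, Trpm6, Asic5, P2rx6, Uchl1, Gja1, Kdr, Slc1a3 and the genes listed as near or below the floor were named after their values were seen. Members and lists were chosen with earlier results of these data known. Alternatives were scaling, offset, probe set choice and floor. Counting by fold was tested on simulated data. Python 3.11.15, numpy 2.4.6, pandas 2.3.3, statsmodels 0.14.6 and matplotlib 3.10.9 were used.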

Additional observations from a re-analysis of the deposited data

How the results depend on the processing

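The count of channel genes at or above the floor was 8 of 9, and it was compared under other settings. It was the same with a floor from olfactory receptor genes, or at the 90th or 99th percentile, and after quantile normalization. Median centring and offsets of 16 and 0 also gave 8, but they left little or no room for change. Centring kept each gene's mean over the 3 arrays, and an offset keeps the order of values on an array. Trpm8 was the gene below each time. The counts at 1.5-fold were 0 in the 3 comparisons under median centring, loess and quantile normalization. These scalings left every channel gene within 0.017, far under the 1.5-fold threshold of 0.585 in log2. Starting from equal or nearly equal values, they had little room to change the counts. The counts were also 0 with offsets of 16 and 0, but a changed offset cannot separate equal values. For the genes with identical values these offsets could therefore change nothing. Keeping the dimmest or the mean probe set could change nothing, since each of these genes has 1. The counts of genes that differ at all depended on the scale, since any shift of an array separates equal values: after median centring 9 of 9 differed in each comparison, after quantile normalization 7 in each, and after loess 3 with IgG against control. No difference of a channel gene exceeded 0.017 (log2) under any of these settings. Piezo2 with SEMA3E against control lay between −0.0023 and −0.017, and with IgG against SEMA3E it turned from 0.0023 to −0.0030 after quantile normalization. No paired analysis was possible because each medium has 1 array. Signal near the floor limits what can be read for Trpm8, Trpv1 and Trpa1.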
